A study of Mus musculus with 24 samples.

Results

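The photoreceptor ribbon synapse genes examined here are 10 genes, Cacna1f, Cacna2d4, Cabp4, Ctbp2, Rims2, Bsn, Slc17a7, Cplx3, Cplx4 and Elfn1, of the 56748 genes in the deposited table. They were chosen by name for the known place of their products in the rod and cone terminal, not by a threshold on measured values. Earlier results of these data were known when they were chosen. All 10 were found by symbol and all had enough counts to be tested in every comparison. RNA was measured in the neural retina and in the eye cup (the retinal pigment epithelium, choroid and sclera left after the retina is removed) of 12 mice, which gives 24 libraries in 8 groups of 3. PRDM13-OE mice carried 1 copy of a doxycycline-inducible human PRDM13 construct at Rosa26 on a C57BL/6J background, in which a ubiquitous EF-1α promoter drives the rtTA activator and a TRE3G promoter drives the 3xHA-tagged protein, so that induction is not restricted to photoreceptors. The comparison mice were wildtype littermates without the construct. In the dox groups of both genotypes the drinking water held 2 mg/ml doxycycline and 10% sucrose for 72 hours, beginning at postnatal day 28, and the untreated groups of both genotypes received none. Mice of both sexes were used in the study, and the groups below are called PRDM13-OE dox, PRDM13-OE untreated, wildtype dox and wildtype untreated.

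Rods and cones signal in darkness by a steady release of glutamate that light reduces. The vesicles are held at a synaptic ribbon, a plate built mainly of RIBEYE, next to voltage-gated calcium channels of the Cav1.4 type, and complexins specialised for ribbon synapses act on their fusion. Across the cleft, adhesion proteins of the photoreceptor align the release site with the mGluR6 receptor of ON bipolar cells, and loss of several of these proteins causes forms of night blindness in people and mice.

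The promoters of the members with the largest fall and rise, and of the gene for RIBEYE, are shown as the 250 bases before the start site, from RefSeq (GRCm38.p6 table), with their places found by exact match in GRCm39. The table held 7 promoters for 6 of the 10 members. Capitals mark 2 motifs searched on both strands, the CRX motif TAATCC of a photoreceptor homeodomain factor, which reads GGATTA on the other strand, and the E-box CANNTG bound by basic helix-loop-helix factors. The sequences are written 5′ to 3′ on the gene's strand.
Elfn1 (chr5:139893371-139893620, plus strand): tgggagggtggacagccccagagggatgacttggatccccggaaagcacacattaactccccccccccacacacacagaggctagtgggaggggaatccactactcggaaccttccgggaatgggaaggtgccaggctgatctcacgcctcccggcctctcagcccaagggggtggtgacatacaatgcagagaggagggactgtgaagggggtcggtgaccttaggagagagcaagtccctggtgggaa
Cplx3 (chr9:57513565-57513814, minus strand): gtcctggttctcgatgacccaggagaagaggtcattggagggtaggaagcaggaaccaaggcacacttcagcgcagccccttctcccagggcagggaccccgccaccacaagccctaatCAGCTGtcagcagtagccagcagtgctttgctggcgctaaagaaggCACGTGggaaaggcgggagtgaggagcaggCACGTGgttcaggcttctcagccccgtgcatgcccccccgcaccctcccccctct
Ctbp2, start nearer the 3′ end of the gene (chr7:132616977-132617226, minus strand): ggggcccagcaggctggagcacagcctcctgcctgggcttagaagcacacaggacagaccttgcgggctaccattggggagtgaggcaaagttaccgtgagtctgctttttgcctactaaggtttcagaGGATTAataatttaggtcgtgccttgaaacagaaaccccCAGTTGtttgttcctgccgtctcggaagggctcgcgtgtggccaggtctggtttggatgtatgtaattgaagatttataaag
Ctbp2, start nearer the 5′ end (chr7:132683590-132683839, minus strand): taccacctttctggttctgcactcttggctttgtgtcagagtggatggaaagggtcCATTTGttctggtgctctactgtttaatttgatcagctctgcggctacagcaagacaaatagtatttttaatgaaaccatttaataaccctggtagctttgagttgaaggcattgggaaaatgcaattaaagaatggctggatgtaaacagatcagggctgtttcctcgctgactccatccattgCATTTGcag
The Elfn1 window held neither motif. The Cplx3 window held 3 E-boxes, at 131, 85 and 55 bases before the start, and no CRX motif. The Ctbp2 start nearer the 3′ end had 1 CRX motif 121 bases and 1 E-box 82 bases before it, and the other start had 2 E-boxes at 194 and 9 bases. The CRX motif was in 6.25% of all 32851 promoters and an E-box in 66.2%, so an E-box is the usual case. RIBEYE is known to be made from an internal start of Ctbp2, and which start is used in these retinas was not measured.

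Total counts per library ran from 15825059 to 24908314 (median 17624652). The human transgene's own transcript was not analysed here, and mouse Prdm13 lay between 53.0 and 60.3 CPM (read counts as a share of the TMM-adjusted library total) in PRDM13-OE dox retinas and between 44.8 and 54.7 CPM in the other 9. Marker sums showed that the retinas were retina, with 58824 to 84975 CPM of 14 rod markers. The eye cups held retinal RNA in very unequal amounts, from 3582 to 52283 CPM of the same rod markers. The 14 lens crystallins together gave 17.1, 28.8 and 3.56 CPM in PRDM13-OE dox retinas but 11235, 4726 and 119 CPM in the wildtype dox retinas, so lens RNA differed between the arms of the main comparison. The labels do not tell whether replicates with the same number share a litter or a day, and no pair of libraries in a group was the same library deposited again.

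In untreated wildtype retinas the glutamate loading and release genes stood highest per transcript length. By the authors' FPKM (fragments per kilobase of transcript, scaled to the mapped total), Slc17a7, which encodes the vesicular glutamate transporter VGLUT1, was at 481 ± 39.3 (SD, n = 3). Cplx4 and Cplx3, the complexins of ribbon synapses, followed at 201 ± 4.53 and 150 ± 4.57. Ctbp2 (48.2 ± 2.11) and Cabp4 (47.4 ± 1.43) had overlapping ranges and could not be ordered. Cacna2d4 came next at 39.7 ± 0.624. Elfn1 (25.8 ± 1.98) overlapped with Cacna1f (23.2 ± 2.11), and Cacna1f overlapped with Rims2 (21.7 ± 2.11). Bsn was lowest at 6.97 ± 0.924 FPKM. The highest and the lowest of the 10 thus lay much further apart than the retinal groups did for any single member.

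Exons of some members overlap those of other genes, which bears on their counts where strand was not used. In GENCODE vM39, Ctbp2 (chromosome 7) shares 314 exon bases with Fgfr2 on the same strand. On the opposite strand Cacna2d4 (chromosome 6) shares 49 with Lrtm2, Cabp4 (chromosome 19) shares 131 with Gpr152, Rims2 (chromosome 15) shares 411 with the lncRNA gene Gm62416, Slc17a7 (chromosome 7) shares 311 with Gm72144 and Bsn (chromosome 9) shares 1095 with Gm57046 and 354 with F630040L22Rik. Ctbp2 shares 131 and 157 with the opposite-strand lncRNA genes Gm73553 and Gm35364, and Bsn shares 57 on its own strand with the miRNA gene Gm55396. No exon of another gene overlapped Elfn1, Cplx3, Cplx4 or Cacna1f, on chromosomes 5, 9, 18 and X. A gene count also sums RIBEYE and the widely expressed CtBP2 transcript, so the Ctbp2 values below are those of both.

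The first question was whether dox-induced PRDM13 went with a change of these genes in the neural retina, asked against wildtype mice given the same dox and against PRDM13-OE mice given none. Elfn1 fell to 47.8% of the wildtype dox level and 50.6% of the PRDM13-OE untreated level, Cplx3 rose to 125% and 123%, and most of the ribbon and calcium channel genes stayed near the level of the controls. Against wildtype dox, 3 members were higher and 1 was lower with an adjusted p under 0.05, which is called passing the test below. Of all 20560 genes tested, 12.5% passed, 5.01% higher and 7.51% lower. With scaling to library size alone 2175 genes were higher and 1007 lower, against 1030 and 1545 with TMM scaling. With the crystallin level as a covariate, in a fit of all 12 retinas, 173 genes were higher and 388 lower. The crystallin level itself differed between PRDM13-OE dox and wildtype dox retinas, so that fit does not cleanly separate lens RNA from genotype. Only Elfn1 also passed the study's cutoff of a log2-fold change past 1, as did 2.41% of all genes. Against PRDM13-OE untreated, 1 member was higher and 1 lower, where 5.00% of 20603 genes passed, 2.04% higher and 2.96% lower. With library size scaling 677 genes were higher and 472 lower, against 421 and 610 with TMM. These comparisons share the 3 PRDM13-OE dox retinas and are not independent of each other.

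**Figure D1:**
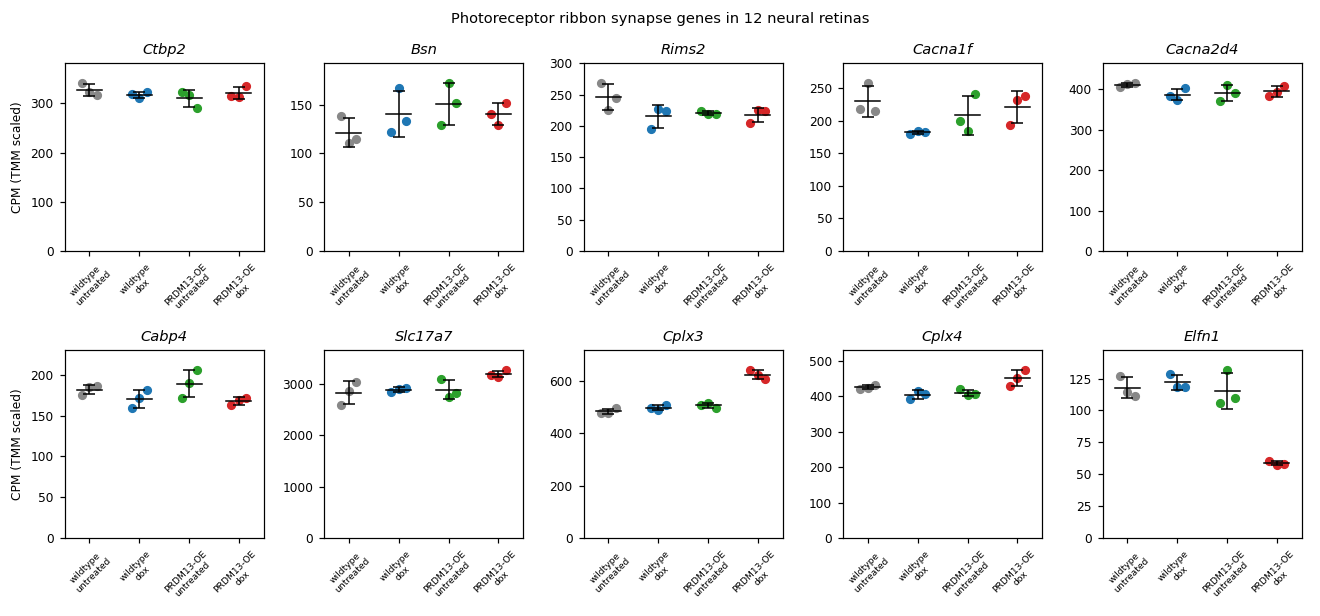
CPM (TMM scaled) of the 10 genes in the 12 neural retinas, 1 panel per gene and 1 point per retina, with the mean and SD (n = 3) of each group in black and every axis starting at 0. Elfn1 in the 3 PRDM13-OE dox retinas (57.1 to 60.1 CPM) lies below the other 9, and Cplx3 (606 to 640 CPM) lies above the other 9.

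Elfn1 encodes a leucine-rich repeat protein of the rod terminal that binds mGluR6 across the cleft and is needed for the synapse of rods with rod bipolar cells. Its level was 60.1, 57.1 and 58.4 CPM in the PRDM13-OE dox retinas. In wildtype dox retinas it was 129, 119 and 118 CPM. The PRDM13-OE untreated retinas had 105, 131 and 109 CPM and the wildtype untreated retinas 127, 114 and 112 CPM. No PRDM13-OE dox retina reached the lowest of the other 9, and the other 3 groups overlapped with each other. The log2-fold change was -1.06 (SE 0.06, adjusted p = 4.74e-07) against wildtype dox, with a 95% interval from -1.19 to -0.94. Against PRDM13-OE untreated it was -0.98 (SE 0.08, adjusted p = 1.16e-05). Dox in wildtype retinas moved Elfn1 by 0.05 (SE 0.07) and the untreated construct by -0.02 (SE 0.09), neither of which passed. The effect of dox differed between the genotypes by -1.03 on the log2 scale (SE 0.11, adjusted p = 2.60e-05), in an interaction test where 3.03% of 22538 genes passed, 1.19% higher and 1.83% lower. With library size scaling 423 genes were higher and 340 lower in that test, against 269 and 413 with TMM. The fall passed the test without each library in turn, with log2-fold changes from -1.09 to -1.02 against wildtype dox, and was -1.10 (adjusted p = 0.000118) with the crystallin level as a covariate.

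Of the vesicle loading and release members, Cplx3 and Slc17a7 rose against wildtype dox. Cplx3 encodes complexin 3, a clamp and facilitator of vesicle fusion found in photoreceptors and in some inner retinal neurons. It was at 640, 621 and 606 CPM in PRDM13-OE dox retinas and at 495, 489 and 507 CPM in wildtype dox retinas. The untreated retinas had 507, 517 and 496 CPM in PRDM13-OE and 478, 477 and 495 CPM in wildtype mice. All 3 PRDM13-OE dox retinas were above the other 9. The log2-fold change was 0.32 (SE 0.04, adjusted p = 0.000452) against wildtype dox and 0.30 (SE 0.05, adjusted p = 0.00294) against PRDM13-OE untreated. The interaction was 0.26 (SE 0.06, adjusted p = 0.0324), which passed in 3 of the 12 fits that leave out 1 retina, where the adjusted p ran up to 0.153. With the crystallin covariate the change against wildtype dox was 0.29 (SE 0.08) with an adjusted p of 0.069. The interaction call was also lost with that covariate (0.24, adjusted p = 0.133) and with the replicate block (0.26, adjusted p = 0.0663).

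Slc17a7 was at 3184, 3146 and 3267 CPM in PRDM13-OE dox retinas and at 2835, 2909 and 2919 CPM in wildtype dox retinas. The untreated retinas spread more widely, with 3095, 2742 and 2831 CPM in PRDM13-OE and 2589, 2863 and 3049 CPM in wildtype mice. The PRDM13-OE dox values were above all others, by a small margin over the highest untreated retina. The log2-fold change of 0.14 (SE 0.03, adjusted p = 0.00549) against wildtype dox passed, and it was 0.13 with an adjusted p of 0.0583 without wildtype dox retina 1. The call was also lost with all 12 libraries in the fit (0.15, adjusted p = 0.108) and with the crystallin covariate (0.12, SE 0.10, adjusted p = 0.638). Against PRDM13-OE untreated it was 0.15 (SE 0.05, adjusted p = 0.159, but 0.0404 without PRDM13-OE untreated retina 1 and 0.0179 with library size scaling), and the interaction of 0.12 (SE 0.08, adjusted p = 0.525) did not pass. Cplx4, whose product is the complexin most restricted to photoreceptors, was at 430, 453 and 474 CPM in PRDM13-OE dox and 392, 416 and 408 CPM in wildtype dox retinas. Those groups did not overlap, but the log2-fold change of 0.15 (SE 0.05, adjusted p = 0.0597) did not pass with the settings used here. It passed under 6 others, with adjusted p from 0.00544 (library size scaling) to 0.0488 (replicate block), and not with all 12 libraries, with the crystallin covariate or in the 6 fits without 1 retina. The untreated retinas had 421, 405 and 406 CPM in PRDM13-OE and 422, 424 and 433 CPM in wildtype mice, and the interaction was 0.21 (SE 0.07, adjusted p = 0.135). Against PRDM13-OE untreated the Cplx4 change was 0.14 (SE 0.05, adjusted p = 0.221). With library size scaling both passed, the interaction at 0.29 (adjusted p = 0.0182) and the change against PRDM13-OE untreated at 0.20 (adjusted p = 0.0362).

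Of the calcium channel genes, Cacna1f alone passed, in 1 comparison. It encodes the pore of Cav1.4. Its values were 194, 232 and 238 CPM in PRDM13-OE dox and 180, 184 and 182 CPM in wildtype dox retinas, a log2-fold change of 0.27 (SE 0.07, adjusted p = 0.0251). The untreated retinas stood at 200, 184 and 241 CPM in PRDM13-OE and at 218, 258 and 215 CPM in wildtype mice. Wildtype dox was thus the lowest group, -0.34 (SE 0.07, adjusted p = 0.207) from wildtype untreated, and PRDM13-OE dox overlapped with both untreated groups. Against PRDM13-OE untreated the change was 0.09 (SE 0.10, adjusted p = 0.776), and the interaction was 0.42 (SE 0.14, adjusted p = 0.126), which DESeq2 gave as 0.41 with an adjusted p of 0.0367 and edgeR without the filter as 0.43 with an adjusted p of 0.000277. Without PRDM13-OE untreated retina 3 it was 0.54 (adjusted p = 0.0186). The call against wildtype dox was lost in 4 of 6 fits that leave out 1 retina, with an adjusted p of 0.120 without PRDM13-OE dox retina 2, 0.108 without PRDM13-OE dox retina 3, 0.056 without wildtype dox retina 1 and 0.0557 without wildtype dox retina 2. It was also lost with all 12 libraries in the fit (0.28, adjusted p = 0.0836) and with the crystallin covariate (0.34, SE 0.16, adjusted p = 0.367).

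Cacna2d4, the auxiliary α2δ4 subunit of the channel, ran from 370 to 415 CPM over the 12 retinas. Its log2-fold change against wildtype dox was 0.03, with a 95% interval from -0.08 to 0.13. Cabp4, a calmodulin-like protein that shifts the opening of Cav1.4 to the photoreceptor's voltage range, ran from 159 to 206 CPM. It changed by -0.03 (interval from -0.15 to 0.10) against wildtype dox and by -0.17 (SE 0.07, adjusted p = 0.225) against PRDM13-OE untreated. Neither gene passed in a retinal comparison with all libraries of its groups, and without PRDM13-OE untreated retina 1 Cabp4 passed against PRDM13-OE untreated (-0.24, adjusted p = 0.0419).

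The ribbon and active zone members gave no call in any retinal comparison with the filter on low counts, and without it Bsn passed for the untreated construct, as given below, and in the interaction (-0.31, adjusted p = 0.0358), where 556 genes were then higher and 877 lower. Ctbp2 lay between 291 and 341 CPM in the 12 retinas, and its log2-fold change against wildtype dox was 0.01 (interval from -0.09 to 0.11). Rims2, which encodes a RIM protein that tethers vesicles and channels at the active zone, lay between 195 and 268 CPM and changed by 0.01 (interval from -0.13 to 0.15). Bsn, whose product bassoon anchors the ribbon to the membrane, varied most, between 111 and 172 CPM, and changed by -0.01 (interval from -0.22 to 0.21). The highest retina for Bsn, at 172 CPM, was PRDM13-OE untreated 2 and the lowest, at 111 CPM, was wildtype untreated 2. Against PRDM13-OE untreated the changes were 0.05 (SE 0.06) for Ctbp2, -0.02 (SE 0.06) for Rims2 and -0.11 (SE 0.09) for Bsn. With 3 retinas a group, changes of any size within these intervals remain compatible with the values.

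**Figure D2:**
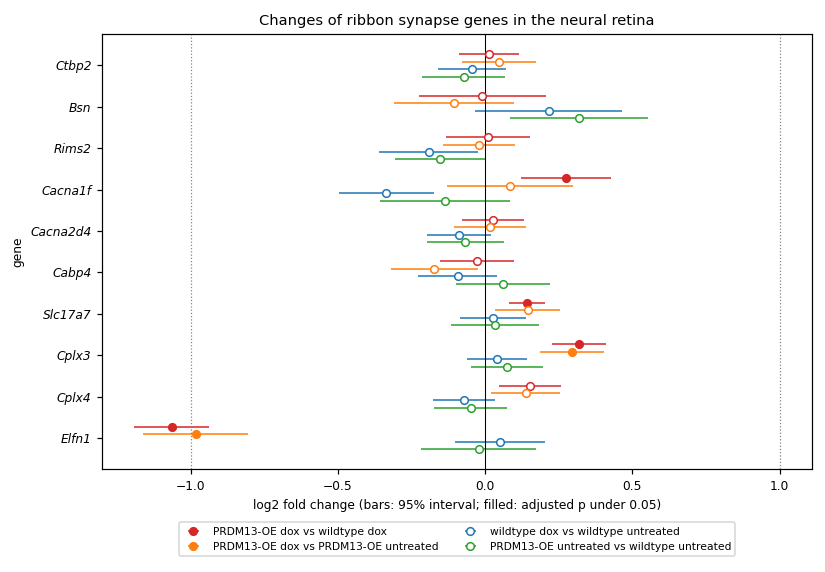
Log2-fold changes (horizontal axis) of the 10 genes (vertical axis) in 4 retinal comparisons, with 95% intervals, where filled points have an adjusted p under 0.05 and dotted lines mark a log2-fold change of 1 in either direction. Elfn1 is at -1.06 and -0.98 in the comparisons that involve PRDM13-OE dox and near 0 in the others, while Ctbp2, Rims2 and Cacna2d4 stay between -0.19 and 0.05 in all of them.

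With the filter on low counts, edgeR called no member in the retina for dox in wildtype mice or for the uninduced construct. The dox water also held sucrose, so effects of dox and of sucrose cannot be told apart. For wildtype dox against wildtype untreated 1 gene of 20631 passed (0.00485%), and at an unadjusted p under 0.05 there were 1922 genes. Among members the largest difference there was that of Cacna1f, given above, which passed with DESeq2, where 69 genes were higher and 24 lower, and with edgeR without the filter (adjusted p = 7.23e-05), where 384 were higher and 204 lower. For PRDM13-OE untreated against wildtype untreated 1 gene of 20668 passed (0.00484%), and 778 had an unadjusted p under 0.05. Bsn had the largest member difference in that comparison, 0.32 (SE 0.11, adjusted p = 0.995). Without the filter its adjusted p was 0.0213, in a fit where 52 genes were higher and 52 lower. The groups did not overlap for 3 of the 10 members in each of these comparisons, beside 14.5% of all genes for dox in wildtype retinas and 9.55% for the untreated construct.

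The groups of PRDM13-OE dox and wildtype dox retinas did not overlap for 5 of the 10 members, against 31.5% of all genes. Against PRDM13-OE untreated 5 members did not overlap, where 20.7% of all genes did not. Summed over the 10 genes, the level was 5713 to 5934 CPM in PRDM13-OE dox and 5163 to 5582 CPM in the other 9 retinas. Slc17a7 gave more of this sum than the other 9 genes together, and without it the sum was 2529 to 2668 CPM in PRDM13-OE dox and 2374 to 2573 CPM in the other 9 retinas, which overlap. The median log2-fold change of the members was 0.02 against wildtype dox, beside 0.0056 over all genes.

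Markers of the photoreceptors themselves did not share this level. Of 14 rod markers 10 were lower and none higher in PRDM13-OE dox than in wildtype dox retinas, with a median log2-fold change of -0.27, and their sum was 58824 to 66145 CPM against 78457 to 80689 CPM. Of 10 cone markers 8 were lower and 1 higher, with a median of -1.21, and of 10 bipolar markers 4 were lower, with a median of -0.29. Summed amacrine markers were at 982 to 1003 CPM against 1082 to 1158 CPM, and horizontal cell markers at 108 to 115 against 134 to 154 CPM. Sums of ganglion cell and Muller glia markers overlapped, and those of microglia were higher, at 48.4 to 50.7 against 41.2 to 46.9 CPM. Per 1000 CPM of rod markers, a measure chosen after the values were seen, the summed members were at 97.1, 95.1 and 89.7 in PRDM13-OE dox retinas and between 64.6 and 68.8 in the other 9. Without Slc17a7 they were at 40.3 to 43.0 and 28.8 to 32.3. Elfn1 went the other way, at 1.02, 0.946 and 0.883 per 1000 CPM of rod markers in PRDM13-OE dox and 1.60, 1.47 and 1.51 in wildtype dox retinas. In bulk RNA, fewer cells of a type and less RNA per cell cannot be told apart, and the part of the rod and cone markers in these values was not tested. In retinal sections after the same length of dox, the paper detected no change in the thickness of the layer of photoreceptor nuclei.

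Other genes of the synapse were taken as 4 lists, 53 genes in all, and 18 were lower and 6 higher in PRDM13-OE dox than in wildtype dox retinas. Their median log2-fold change was -0.14. With scaling to library size alone the counts were 10 lower and 7 higher, so this split depends on the scaling. With the crystallin covariate they were 8 lower and 1 higher, and without PRDM13-OE dox retina 2, 11 were lower.

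The cleft and adhesion list, which holds the proteins that meet those of the bipolar dendrite, had 6 of 9 genes lower and none higher. Lrit2, Lrit3 and Lrit1 encode leucine-rich repeat membrane proteins, of which LRIT3 is known in photoreceptors as a partner of the ON bipolar cascade. Lrit2 was at 116 ± 6.81 CPM in PRDM13-OE dox and 260 ± 7.72 CPM in wildtype dox retinas (SD, n = 3), a log2-fold change of -1.17 (SE 0.06, adjusted p = 1.95e-07). Lrit3 fell by 0.80 (SE 0.09, adjusted p = 0.000122) and Lrit1 by 0.57 (SE 0.06, adjusted p = 3.90e-05) on the log2 scale. Egflam, which encodes the cleft protein pikachurin, fell by 0.73 (SE 0.05, adjusted p = 3.46e-06), and Dag1, the gene of its receptor dystroglycan, by 0.20 (SE 0.06, adjusted p = 0.0388). Elfn2, the paralog of Elfn1, changed by -0.23 (SE 0.06, adjusted p = 0.0215). The call of Elfn2 was lost with library size scaling (-0.14, adjusted p = 0.125), with the crystallin covariate and without PRDM13-OE dox 2 or 3 or wildtype dox 1. That of Dag1 was lost with library size scaling (-0.11, adjusted p = 0.234), with the crystallin covariate, with all 12 libraries and without PRDM13-OE dox 2 or 3 or wildtype dox 1 or 2. The remaining 3 genes of the list did not pass. Against PRDM13-OE untreated 4 of the 9 were lower, with Lrit2 at -1.15, Egflam at -0.78 and Lrit3 at -0.64. With scaling to library size 4 of the 9 were lower and none higher.

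Among 11 other calcium channel and calcium handling genes 1 was higher and 3 were lower. Cabp5, a relative of Cabp4 known mainly from bipolar cells, rose by 0.86 (SE 0.06, adjusted p = 1.95e-06) against wildtype dox and by 0.85 (SE 0.06, adjusted p = 4.88e-06) against PRDM13-OE untreated. Ano2, the calcium-activated chloride channel of photoreceptor terminals, changed by -0.74 (SE 0.07, adjusted p = 3.95e-05) and by -0.73 (SE 0.07, adjusted p = 4.87e-05) in the same comparisons. The plasma membrane calcium pump genes Atp2b1 and Atp2b2 were at -0.31 (SE 0.06, adjusted p = 0.00560) and -0.28 (SE 0.06, adjusted p = 0.00973) against wildtype dox. The Atp2b1 call was lost with the crystallin covariate (-0.46, SE 0.13, adjusted p = 0.0702), and that of Atp2b2 with library size scaling (0.053) and without PRDM13-OE dox retina 2 (0.0523).

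The other ribbon and active zone list had 1 of 11 genes higher and 5 lower against wildtype dox. Dlg4, the gene of the scaffold PSD-95, which rods also carry in their terminals, was at 0.34 (SE 0.05, adjusted p = 0.00167). Unc13c, a Munc13 vesicle priming gene, was at -0.41 (SE 0.08, adjusted p = 0.00536), Mpp4, a photoreceptor terminal scaffold, at -0.35 (SE 0.06, adjusted p = 0.00332), and Rimbp2, the gene of a RIM binding protein, at -0.30 (SE 0.07, adjusted p = 0.0221). The Rimbp2 call was lost with library size scaling (adjusted p = 0.0875) and in 4 of 6 fits that leave out 1 retina, without PRDM13-OE dox 2 or 3 or wildtype dox 2 or 3, with adjusted p up to 0.0832. With the crystallin covariate the calls of Dlg4 (0.26, SE 0.10, adjusted p = 0.203), Mpp4 (-0.38, SE 0.13, adjusted p = 0.163) and Rimbp2 (-0.31, SE 0.13, adjusted p = 0.282) were lost. Against PRDM13-OE untreated 2 of these 11 were lower, Mpp4 at -0.58 (SE 0.07, adjusted p = 0.000150) and Unc119 at -0.25 (SE 0.04, adjusted p = 0.00493), and none was higher.

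The vesicle release and glutamate transport list was split, with 4 of 22 genes higher and 4 lower. Syp, the gene of the vesicle protein synaptophysin, was at 0.25 (SE 0.04, adjusted p = 0.00216), Rab3a, a vesicle GTPase gene, at 0.23 (SE 0.05, adjusted p = 0.00987) and Slc1a2, the gene of the glutamate transporter GLT-1, at 0.30 (SE 0.06, adjusted p = 0.00949). The largest falls were those of Syn3 at -0.57 (SE 0.12, adjusted p = 0.0102) and Syn2 at -0.31 (SE 0.07, adjusted p = 0.0136), synapsins known from conventional rather than ribbon synapses, and of Slc17a6, the gene of VGLUT2, at -0.47 (SE 0.06, adjusted p = 0.000376). With the crystallin covariate the calls of Syp (0.23), Rab3a (0.25), Slc1a2 (0.33), Syn3 (-0.71) and Slc17a6 (-0.54) were lost, with adjusted p from 0.0512 to 0.228. The Syn2 call was lost with library size scaling (adjusted p = 0.0541) and without PRDM13-OE dox retina 2 (0.0523), and that of Slc1a2 without PRDM13-OE dox retina 3 (0.0538). Against PRDM13-OE untreated 3 were higher, Slc1a2 at 0.31 (adjusted p = 0.00474), Syp at 0.24 (adjusted p = 0.0102) and Rab3a at 0.20 (adjusted p = 0.0429). Without PRDM13-OE dox retina 1 the calls of Syp (0.061) and Rab3a (0.193) were lost. Rab3a passed in 1 of 6 fits that leave out 1 retina, the one without PRDM13-OE untreated 3, and was lost with the replicate block (0.0853) and the crystallin covariate (0.0631). The 1 lower was Slc1a7, a glutamate transporter gene of photoreceptors, at -0.24 (SE 0.06, adjusted p = 0.0355). The Slc1a7 call passed in 1 of 6 fits that leave out 1 retina, the one without PRDM13-OE untreated 1, with adjusted p up to 0.174 in the others, and was lost with library size scaling (0.145), the replicate block (0.077), all 12 libraries (0.0562) and the crystallin covariate (0.0749).

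**Figure D3:**
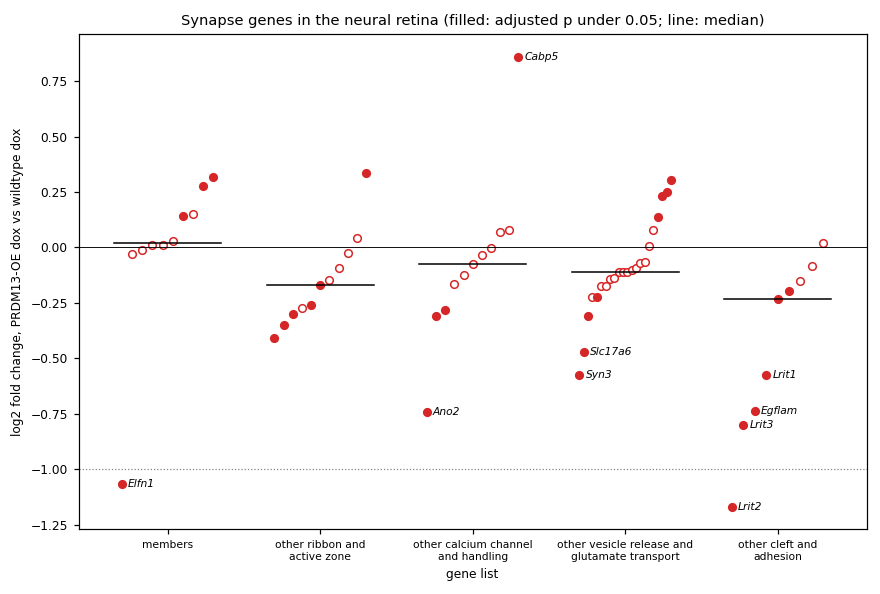
Log2-fold change in PRDM13-OE dox against wildtype dox retinas (vertical axis) for the members and for 4 lists of other synapse genes (horizontal axis), 1 point per gene, filled where the adjusted p is under 0.05, with the median of each list as a line. Elfn1 (-1.06) and Lrit2 (-1.17) are the only points below -1, and Cabp5 (0.86) is the highest.

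The genes whose level over the 12 retinas was most like that of each member that passed were found by Pearson's r of log2 CPM among 10213 genes with a mean of at least 10 CPM. Elfn1 was followed most closely by Ppp1cc (r = 0.987), Mef2d (0.986), which encodes a transcription factor used in photoreceptors, and Acsl1 (0.985). For Cplx3 they were Cabp5 (0.984), Syp (0.977) and BC055402 (0.973). Weaker likeness was found for Slc17a7, with Ufc1 (0.918), Mrps28 (0.901) and Mettl9 (0.893), and for Cacna1f, with Ccdc24 (0.919), Guf1 (0.914) and Eef2kmt (0.913). The points are 12 retinas in 4 groups, so a gene that moves in 1 group alone gives a high r with every other such gene.

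The next question was what these genes did in the eye cup, a tissue without photoreceptors of its own. All 10 were higher in the retina than in the eye cup of the same mice, with log2-fold changes from 1.49 (SE 0.15, adjusted p = 3.95e-07) for Ctbp2 to 2.42 (SE 0.44, adjusted p = 0.000158) for Bsn. Of all genes tested 32.5% were higher in the retina. Members ran over a far wider range among the 12 eye cups than among the retinas, 40.7-fold for Cplx3 and 44.9-fold for Bsn, against 1.34-fold and 1.55-fold in the retinas. Ctbp2 had the narrowest range, 2.63-fold. The eye cup with the most rod marker RNA, wildtype dox 1, had 52283 CPM of rod markers and 1898 CPM of Slc17a7, and the one with the least, wildtype untreated 2, had 3582 CPM and 121 CPM. Neither Slc17a7 nor Elfn1 kept strictly to the order of the rod markers. In PRDM13-OE dox 3, at 41003 CPM of rod markers, Slc17a7 was at 2019 CPM, above wildtype dox 1. Elfn1 was at 29.7 CPM there and at 38.9 CPM in wildtype untreated 1, at 26383 CPM of rod markers.

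No member passed the test in any eye cup comparison by edgeR with the filter on low counts. For PRDM13-OE dox against wildtype dox 0.0184% of 21758 genes passed, and 1792 genes had an unadjusted p under 0.05. Elfn1 was at 14.9, 15.7 and 29.7 CPM in PRDM13-OE dox and at 70.8, 66.9 and 50.7 CPM in wildtype dox eye cups. It was at 22.3, 32.4 and 12.7 CPM in PRDM13-OE untreated and at 38.9, 11.7 and 17.8 CPM in wildtype untreated eye cups. Wildtype dox was therefore the high group, and the other 3 overlapped. Elfn1 was the 1 member whose PRDM13-OE dox and wildtype dox eye cups did not overlap, beside 15.7% of all genes. Cplx3, by contrast, was at 145, 68.9 and 520 CPM in PRDM13-OE dox and at 309, 247 and 161 CPM in wildtype dox eye cups, a log2-fold change of 0.08 (SE 0.68, adjusted p = 0.971). Slc17a7 was at 745, 339 and 2019 CPM and at 1898, 1618 and 1147 CPM in these groups, a log2-fold change of -0.54 (SE 0.61, adjusted p = 0.767). For both genes PRDM13-OE dox eye cup 3 was the highest of the 6 and eye cup 2 of that group the lowest. The log2-fold change of Elfn1 against wildtype dox was -1.60 (SE 0.31, adjusted p = 0.597), and DESeq2, which called 73 genes higher and 74 lower, gave -1.61 with an adjusted p of 0.00391. Without PRDM13-OE dox eye cup 3 the Elfn1 change was -2.01 (SE 0.21, adjusted p = 0.0117), and 5 members, Bsn, Cabp4, Ctbp2, Elfn1 and Rims2, were then lower, as were 6.91% of all genes in that fit. Against PRDM13-OE untreated Elfn1 changed by -0.18 (SE 0.45, adjusted p = 0.981), and the other 9 members by 0.14 (Ctbp2) to 1.34 (Cplx3). Rod marker sums were 14148, 6514 and 41003 CPM in the PRDM13-OE dox and 52283, 39890 and 27719 CPM in the wildtype dox eye cups, and the part of retinal RNA in these differences was not tested.

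Wildtype dox eye cups had more of all 10 genes than wildtype untreated eye cups, with log2-fold changes from 0.84 for Ctbp2 to 2.13 for Bsn, adjusted p from 0.0830 to 0.219 and none past the test. No gene passed in that comparison (0.00%), 6517 of 21799 had an unadjusted p under 0.05, and DESeq2 called 6 members and 10.7% of all genes higher. With library size scaling 1143 genes were higher and 205 lower, with no member among them. Without the filter edgeR called Bsn (adjusted p = 0.0414), in a fit where 926 genes were higher and 678 lower. The groups did not overlap for 9 of the 10 members, Cplx4 being the exception, beside 37.5% of all genes. Without wildtype untreated eye cup 1, 7 members and 9.36% of all genes were higher. Rod markers moved the same way, with 26383, 3582 and 13884 CPM in the wildtype untreated eye cups, and their part was not tested. For PRDM13-OE dox against PRDM13-OE untreated eye cups 0.0139% of genes passed and 894 had an unadjusted p under 0.05. No gene passed for PRDM13-OE untreated against wildtype untreated or for the interaction, where 404 and 1526 genes had an unadjusted p under 0.05 and DESeq2 called 2 higher and 1 lower, and 18 higher and 22 lower. The members' log2-fold changes ran from -0.17 (Cacna1f) to 0.34 (Cplx3) for the untreated construct and from -1.62 (Elfn1) to -0.28 (Cplx3) for the interaction. In these comparisons they had standard errors of up to 1.39. No member's groups were free of overlap for PRDM13-OE dox against untreated or for the untreated construct, beside 9.32% and 5.84% of all genes. Effects of the size seen in the retina were not detectable there.

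Relative to rod markers, the summed members spanned 58.3 to 97.3 in the eye cups and 64.6 to 97.1 in the retinas. They were at 92.2, 97.3 and 86.1 per 1000 CPM of rod markers in PRDM13-OE dox eye cups, at 62.3, 70.3 and 70.6 in wildtype dox, at 63.5, 61.0 and 60.5 in PRDM13-OE untreated and at 58.3, 75.0 and 59.8 in wildtype untreated. Without Slc17a7 the PRDM13-OE dox eye cups, at 36.8 to 45.3, overlapped with the other 9, at 26.0 to 41.1, of which wildtype untreated 2 was the highest. Single members spread further, with Ctbp2 at 3.24 to 17.9 per 1000 CPM of rod markers in eye cups against 3.70 to 5.36 in retinas and Cplx3 at 1.55 to 12.7 against 5.84 to 10.9. Elfn1 as a percentage of the summed CPM of the other 9 members was 1.06, 1.01 and 0.994 in PRDM13-OE dox retinas and 1.94 to 2.55 in the other 9 retinas. In eye cups it was 1.16, 2.54 and 0.850 in PRDM13-OE dox and 2.20 to 4.55 in the other 9. PRDM13-OE dox eye cup 2, at 2.54, lay among the other groups and had the least rod marker RNA of its group. Both measures were chosen after the values were seen and carry no test, and the eye cups came from the same mice as the retinas.

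**Figure D4:**
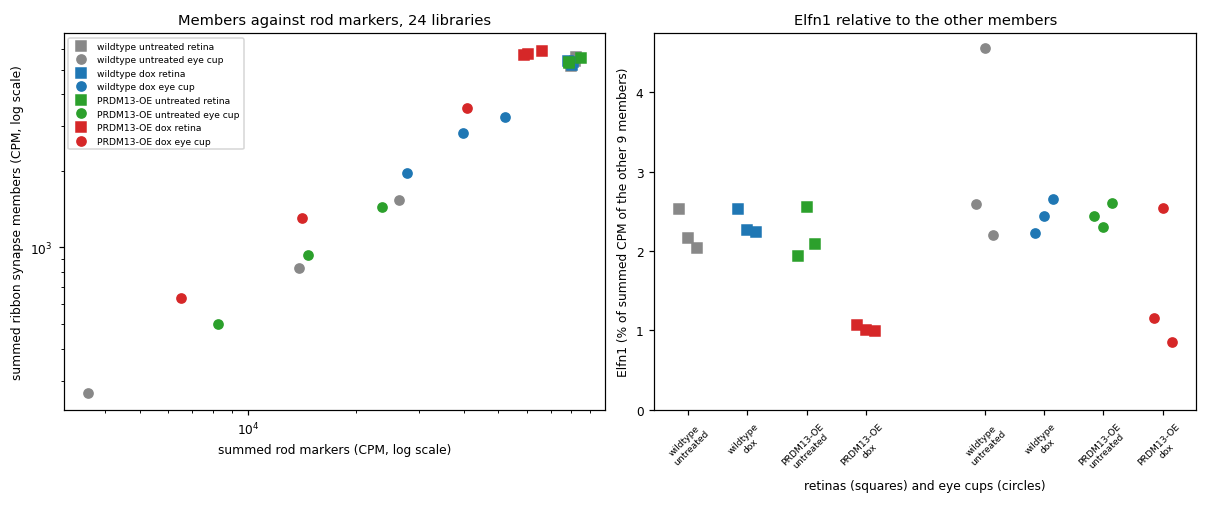
Left, summed CPM of the 10 members against summed CPM of 14 rod markers in 24 libraries, both on log scales. Right, Elfn1 as a percentage of the summed CPM of the other 9 members in each retina (squares) and eye cup (circles), where PRDM13-OE dox retinas lie between 0.994 and 1.06 and 1 PRDM13-OE dox eye cup, at 2.54, lies apart from the rest of its group.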

How the data were processed

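Poly(A) RNA of 24 libraries was sequenced by Novogene on Illumina instruments. Per the labels the authors used HISAT2 and GRCm39, and the counting tool and annotation release are not given in the sources used here, nor is it clear whether counting used strand. The deposited table holds, per gene and library, read counts (the tests and CPM here) and the authors' FPKM (levels between genes), with gene symbols. Its columns of the authors' own comparisons (fold changes and p-values) were not used.

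Counts were fitted with edgeR 4.0.16 (R 4.3.3, TMM scaling, quasi-likelihood test) over genes with at least 10 summed counts, separately for each comparison (the interaction over 12 libraries, retina against eye cup over 24 with the mouse as a block). The p-values were adjusted by Benjamini-Hochberg over all genes tested. Intervals are 95% and use the fit's t distribution. DESeq2 1.42.0 and further settings were alternatives, and the scripts were tested on simulated data.

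The members and gene lists were chosen with earlier results of these data known. All members were tested in every comparison. Those that passed with the settings used here are given by value or by their range, and other member results are given only in part. Of each other list the text names up to 3 genes at either extreme. They are taken from those that passed in the retina against wildtype dox or PRDM13-OE untreated. Dag1, Elfn2 and Lrit1 were added after their values were seen. With 3 libraries a group from separate mice, depth limited the members little in retinas, where the lowest count of a member in 1 library was 1021 (Elfn1), and more in eye cups, where it was 30 (Bsn). Human PRDM13 reads were not analysed here.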

Additional observations from a re-analysis of the deposited data

Results flagged for a closer look

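Among the 10 members and the 53 other synapse genes, 8 had an effect of dox in the retina that differed between PRDM13-OE and wildtype mice in the edgeR interaction test (3 retinas in each of 4 groups, 3.03% of all genes passing). The difference was -1.07 on the log2 scale for Lrit2 (adjusted p = 2.13e-06), -1.03 for Elfn1 (adjusted p = 2.60e-05), -0.69 for Lrit3 (adjusted p = 0.0355), -0.66 for Egflam (adjusted p = 0.000429), -0.59 for Lrit1 (adjusted p = 0.00121, named after its values were seen) and -0.57 for Ano2 (adjusted p = 0.00344). It was 0.26 for Cplx3 (adjusted p = 0.0324) and 0.79 for Cabp5 (adjusted p = 8.88e-05). The Cplx3 call was lost with the replicate block (adjusted p = 0.0663) and with the crystallin covariate (adjusted p = 0.133). In the 12 fits that leave out 1 retina the call was lost 9 times for Cplx3 (adjusted p up to 0.153) and 7 times for Lrit3 (adjusted p up to 0.0939), and the other 6 genes passed in all 12.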

How the results depend on the processing

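Of 1690 values of the members' log2-fold changes under other settings, 1631 kept their direction and side of the threshold or were not called in either fit, 21 lost a call and 38 gained one, and none that was called turned. In 78 fits the sign changed for a value that passed in neither fit, over 33 results. In the retina against wildtype dox, 3 members higher became 4, with Cplx4 added, under DESeq2, library size scaling, no filtering, filterByExpr, robust fitting and the replicate block, but 1 with all 12 libraries in the fit, 0 with the crystallin covariate and 0 with a log2-fold change past 1, and 1 to 3 when 1 retina was left out. The lower count there stayed at 1 in every setting. Among other synapse genes 6 higher became 1 with the crystallin covariate and 0 past a log2-fold change of 1 (4 to 6 without 1 retina), and 18 lower became 10 with library size scaling, 8 with the crystallin covariate and 1 past a log2-fold change of 1 (11 to 19 without 1 retina). The cleft genes lower went from 6 to 1 past a log2-fold change of 1. Against PRDM13-OE untreated the 1 member higher became 3 with library size scaling and 0 past a log2-fold change of 1 (1 to 2 without 1 retina), and the 1 lower became 0 past a log2-fold change of 1 (1 to 2 without 1 retina). Without filtering of low counts 1 member was lower for wildtype dox against untreated, as with DESeq2 (1), and 1 was higher for PRDM13-OE untreated against wildtype untreated. For the interaction the 1 member higher became 2 with DESeq2, 2 with library size scaling, 2 without filtering, 0 with the crystallin covariate and 0 past a log2-fold change of 1 (0 to 1 without 1 retina), and the 1 lower became 2 without filtering. In eye cups 0 lower against wildtype dox became 1 with DESeq2 (0 to 5 without 1 eye cup), and 0 higher for wildtype dox against untreated became 6 with DESeq2 and 1 without filtering (0 to 7 without 1 eye cup). The cause of these moves was not tested.

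The labels give the groups the same replicate numbers, but same-numbered libraries did not deviate together in every pair. For PRDM13-OE dox and wildtype dox retinas the correlations were 0.06, 0.06 and 0.08, with each of the 3 retinas closest to its own number. With the replicate number as a block the 1 member higher in the retinal interaction became 0, with Cplx3 at 0.26 (adjusted p = 0.0663), and no other count of members passing moved by over 1.5 times. Retina and eye cup are paired by mouse in the labels. Groups of 3 limit what can be seen, and in eye cups the wider spread of the members between libraries limits it further.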
